A study of Mus musculus with 9 samples.

Results

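Cadherins of mesenchymal and endothelial cells were followed across quiescent stellate cells and activated fibroblasts of the mouse liver. The genes were 7 of the 24453 in the file, chosen by symbol: the cadherins Cdh2, Cdh3, Cdh5, Cdh6, Cdh11 and Cdh13, and Ctnna3, which encodes a catenin. RNA sequencing covered 3 libraries in each of 3 groups, and each library was pooled from 3 to 5 mice. Hepatic stellate cells (HSC), the liver cells that store vitamin A, were separated on a density gradient from the livers of untreated wild-type mice. CCl4-fib were fibroblasts from Col1a2-GFP Tg mice that had received carbon tetrachloride, which injures hepatocytes, at 1 ml/kg into the peritoneum 2 times per week for 8 weeks. NASH-fib were fibroblasts from male mice carrying both the Col1a2-GFP transgene and a knockout of the melanocortin 4 receptor (MC4R-KO), started at 8 weeks of age on a Western diet that lasted 20 weeks, a model of non-alcoholic steatohepatitis. In both fibroblast groups, cells negative for CD45 and positive for GFP were sorted, and the GFP was driven by the collagen gene promoter Col1a2. The sort thus aimed at cells using that promoter. RNA of Ptprc, the CD45 gene, was still read in every sorted library. NASH-fib replicates 1 to 3 held 235, 70 and 317 reads of it, against at most 30 per CCl4-fib library. Which cells this RNA came from was not tested. HSC were not sorted and came from animals without the transgene, so the way of isolation and the disease state cannot be told apart in any comparison with HSC.

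Cadherins are calcium-dependent adhesion proteins that bind a cadherin on the neighbouring cell through their extracellular repeats. Inside the cell, the tail of a classical cadherin binds beta-catenin, and an alpha-catenin links that complex to actin. N-cadherin (Cdh2) and cadherin-11 are typical of mesenchymal cells, VE-cadherin (Cdh5) is the junction protein of endothelium, and E-cadherin (Cdh1) is that of epithelia, hepatocytes included.

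Expression is given as a normalised read value, the reads on a gene scaled so that every library had the same total, and between genes it is compared only per kb of exon. The libraries held 3071070 to 5634273 reads on genes, and a floor of 3 reads stood at a value of 2.38 to 4.37. Pearson correlations of log2 values between libraries of a group ran from 0.77 to 0.94. All 7 genes were among the 13651 that passed the filter on low reads, but Cdh6 and Ctnna3 did so through the fibroblast libraries, as HSC had at most 1 read on either. They could pass only by being high in fibroblasts, so the counts that include them describe the genes and support nothing. Of the 7 genes, 4 rose and 2 fell in NASH-fib compared with HSC, at a fold change of at least 2 and an adjusted p under 0.05 (limma, Benjamini-Hochberg over all tested genes), where 8.23% of all tested genes rose and 4.3% fell. In CCl4-fib compared with HSC, 4 rose and 2 fell as well, where 16.2% of all tested genes rose and 11.7% fell. Without Cdh6 and Ctnna3, 2 rose and 2 fell in each of these comparisons. Between NASH-fib and CCl4-fib, 1 was higher and 1 lower in NASH-fib, where 4.97% of all genes were higher and 5.66% lower. Within the dates in the labels that held both groups, all 6 genes called in a comparison with HSC kept their direction. Libraries of the groups did not overlap for 6 of the 7 genes in each comparison with HSC, where this held for 24.4% (NASH-fib) and 48.6% (CCl4-fib) of all tested genes, and for 3 between the fibroblast groups, where it held for 39.1%. Both comparisons with HSC used the same 3 HSC libraries. Among all calls between the fibroblast groups, 46.7% were higher in NASH-fib with the deposited scaling and 58.8% by edgeR.

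**Figure D1:**
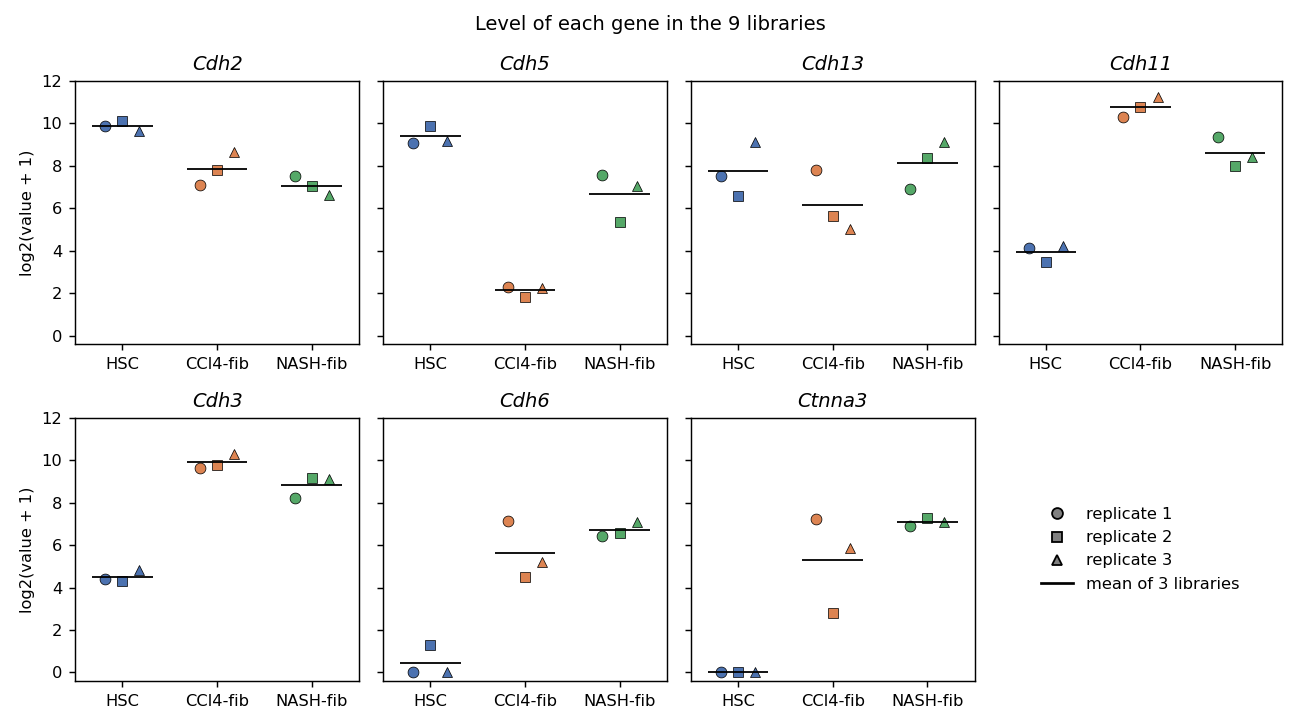
Normalised read value of the 7 genes in each of the 9 libraries, as log2(value + 1), with 1 point per library and a line at the mean of the 3 libraries. Cdh2 and Cdh5 were highest in HSC, Cdh3 and Cdh11 in CCl4-fib, and Ctnna3 had no read in any HSC library.

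Cdh2, the N-cadherin gene, had the highest mean per kb among the 6 cadherins in HSC and fell in both kinds of fibroblast; in HSC replicate 2, Cdh5 stood above it (239 against 230 per kb). The gene (NM_007664) lies on the minus strand of chromosome 18 from 16588877 to 16809246 (mm10) and has 16 exons. Its value was 950, 1111 and 796 in the 3 HSC libraries, 134, 224 and 399 in CCl4-fib, and NASH-fib had 182, 132 and 99.3. Every HSC library was above every fibroblast library, while the fibroblast groups overlapped. The mean fell from 953 ± 157 in HSC to 252 ± 135 in CCl4-fib and 138 ± 41.8 in NASH-fib (SD, n = 3 each). The log2 fold change was -2.04 for CCl4-fib (SE 0.43, limma adjusted p = 0.00601) and -2.81 for NASH-fib (SE 0.43, limma adjusted p = 0.00162). Between the fibroblast groups, the log2 difference was -0.77 (95% interval -1.73 to 0.19, limma adjusted p = 0.267), so a difference beyond the spread was not shown. Of 10 markers of quiescent stellate cells, 7 fell in both comparisons with HSC, as Cdh2 did. Their sum was 57849 to 64167 in HSC, 8304 to 21109 in CCl4-fib and 19188 to 32189 in NASH-fib. At most 1 of them was at 0 in a library. In replicates 1 to 3 of CCl4-fib the sum was 21109, 9966 and 8304, the reverse of the Cdh2 order. NASH-fib had 32189, 25456 and 19188, the same order as Cdh2. In NASH-fib against CCl4-fib the list's median log2 change was 0.70, while that of Cdh2 was -0.77. Of 15 hepatocyte markers, 13 fell in CCl4-fib compared with HSC (median log2 change -4.14 over the list) and 0 fell in NASH-fib (median -0.94). In NASH-fib, 10 of the 15 were higher than in CCl4-fib and 0 were lower (median 3.35). None of the 15 was at 0 in any library. The part of either list in the Cdh2 values was not tested.

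Cdh5, the VE-cadherin gene, was high in HSC, close to the floor in CCl4-fib and between them in NASH-fib. It (NM_009868) lies on the plus strand of chromosome 8 from 104101625 to 104144502 and has 12 exons. Its value was 548, 948 and 580 in HSC and 192, 40.1 and 131 in NASH-fib, against 3.97, 2.55 and 3.82 in CCl4-fib (5, 3 and 4 reads). The groups were separate, with NASH-fib replicate 2 the lowest of its group. CCl4-fib fell by 7.25 on the log2 scale (SE 0.58, limma adjusted p = 2.92e-05) and NASH-fib fell by 2.73 (SE 0.58, limma adjusted p = 0.00969) compared with HSC. In NASH-fib the mean was 35.1-fold that of CCl4-fib, a log2 difference of 4.53 (95% interval 3.25 to 5.80, limma adjusted p = 0.00562). With the date in the labels as a term, the fall in NASH-fib kept its size (-2.74) but the limma adjusted p became 0.113. Within the date 11-3, which held 1 library of each group, NASH-fib differed from HSC by -2.30 and from CCl4-fib by 5.28 on the log2 scale.

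Between the groups, markers of endothelium moved with Cdh5, but within a group the order of the libraries often differed. HSC replicate 2 had the highest Cdh5 of its group (948) and the lowest endothelial sum, with Esam (8476) and without it (8117). NASH-fib replicate 1 had the highest Cdh5 of its group (192) and the lowest sum with Esam (3386). Of 15 endothelial marker genes, 10 fell and 0 rose in NASH-fib compared with HSC, 14 fell and 0 rose in CCl4-fib, and 8 were higher and 0 lower in NASH-fib than in CCl4-fib (limma, thresholds as above). Their summed value was 8476 to 18139 in HSC, 906 to 1745 in CCl4-fib and 3386 to 5691 in NASH-fib. Cldn5, of endothelial tight junctions, was at 0 in CCl4-fib replicates 2 and 3, and Tie1, a receptor of endothelium, was at 0 in replicate 3; none of the 15 was at 0 in a library of the other groups. Esam, an adhesion gene of the list, had 1360, 561 and 605 in CCl4-fib and 2609 in NASH-fib replicate 2, and without it the sum was 8117 to 16649 in HSC, 301 to 397 in CCl4-fib and 1356 to 4231 in NASH-fib, where replicate 2 was then the lowest. Cdh5 made up 4.11%, 11.2% and 3.20% of the sum of all 15 in HSC, 0.227%, 0.266% and 0.421% in CCl4-fib, and NASH-fib had 5.66%, 1.01% and 2.30%. Without Esam, the shares were 4.26%, 11.7% and 3.48% in HSC, 1.03%, 0.642% and 1.27% in CCl4-fib, and NASH-fib had 6.12%, 2.96% and 3.09%. The part of endothelial RNA in the Cdh5 values was not tested, and in pooled cells fewer cells of a type and less RNA per cell cannot be told apart.

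Cdh11, which encodes OB-cadherin of bone-forming and other mesenchymal cells, rose in both kinds of fibroblast and was the highest cadherin of CCl4-fib per kb. It (NM_009866) lies on the minus strand of chromosome 8 from 102632095 to 102785111, has 13 exons and is 1316.5 kb from Cdh5. Its value was 16.4, 10.2 and 17.9 in HSC (14, 7 and 15 reads), 1279, 1781 and 2421 in CCl4-fib, and NASH-fib had 661, 256 and 345. The 3 groups did not overlap. The mean rose from 14.8 ± 4.09 in HSC to 1827 ± 572 in CCl4-fib, which is 123-fold, and to 420 ± 213 in NASH-fib, which is 28.3-fold (SD, n = 3 each). With a library left out, these ratios ranged from 103 to 142 (CCl4-fib) and from 20.2 to 33.9 (NASH-fib), on few reads in HSC. The log2 fold change was 6.84 for CCl4-fib (SE 0.44, limma adjusted p = 1.15e-05) and 4.65 for NASH-fib (SE 0.44, limma adjusted p = 9.55e-05).

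In NASH-fib, Cdh11 was 4.35-fold lower than in CCl4-fib, a log2 difference of -2.19 (95% interval -3.17 to -1.21, limma adjusted p = 0.0171). The call was lost when replicate 2 of CCl4-fib (-2.18, limma adjusted p = 0.0782), replicate 3 of CCl4-fib (-1.96, 0.0617) or replicate 3 of NASH-fib (-2.10, 0.0638) was left out, with the date as a term (-2.04, 0.0675), and with no filter on low values (-2.19, 0.0556). Within the date 11-3, the single NASH-fib library differed from the single CCl4-fib library by -0.95 on the log2 scale, and within 11-7 the difference was -3.02 for 2 NASH-fib libraries against 1 of CCl4-fib. In the same comparison, 5 of 10 activated fibroblast markers were lower in NASH-fib and 0 were higher; their sum was 63880 to 76947 in CCl4-fib and 34972 to 39520 in NASH-fib.

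Cdh3, which encodes the P-cadherin of placenta, basal epithelia and myoepithelium, rose in both kinds of fibroblast too. It (NM_007665) lies on the plus strand of chromosome 8 from 106510852 to 106556911, has 16 exons and ends 46.4 kb before Cdh1. Its value was 19.9, 18.9 and 27.5 in HSC (17, 13 and 23 reads), 804, 861 and 1234 in CCl4-fib, and NASH-fib had 296, 565 and 558. All HSC libraries were below all fibroblast libraries, and all NASH-fib libraries were below all CCl4-fib libraries. The mean was 43.7-fold that of HSC in CCl4-fib (log2 fold change 5.38, SE 0.38, limma adjusted p = 1.67e-05) and 21.4-fold in NASH-fib (log2 fold change 4.32, SE 0.38, limma adjusted p = 6.37e-05). Between the fibroblast groups, the log2 difference of -1.06 (95% interval -1.91 to -0.21) did not pass the test (limma adjusted p = 0.102).

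Mesothelium, smooth muscle and bile duct lists were also higher in the fibroblast groups, in which Cdh3 and Cdh11 rose. All 8 mesothelial markers rose in both groups compared with HSC, and their sum was 660 to 1042 in HSC, 16495 to 22619 in CCl4-fib and 25811 to 32555 in NASH-fib, with none at 0 in any library. Of 10 smooth muscle markers, 9 rose in CCl4-fib and 8 in NASH-fib, and of 8 tested cholangiocyte markers, 4 and 6 rose. The part of these cells in the Cdh3 and Cdh11 values was not tested.

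**Figure D2:**
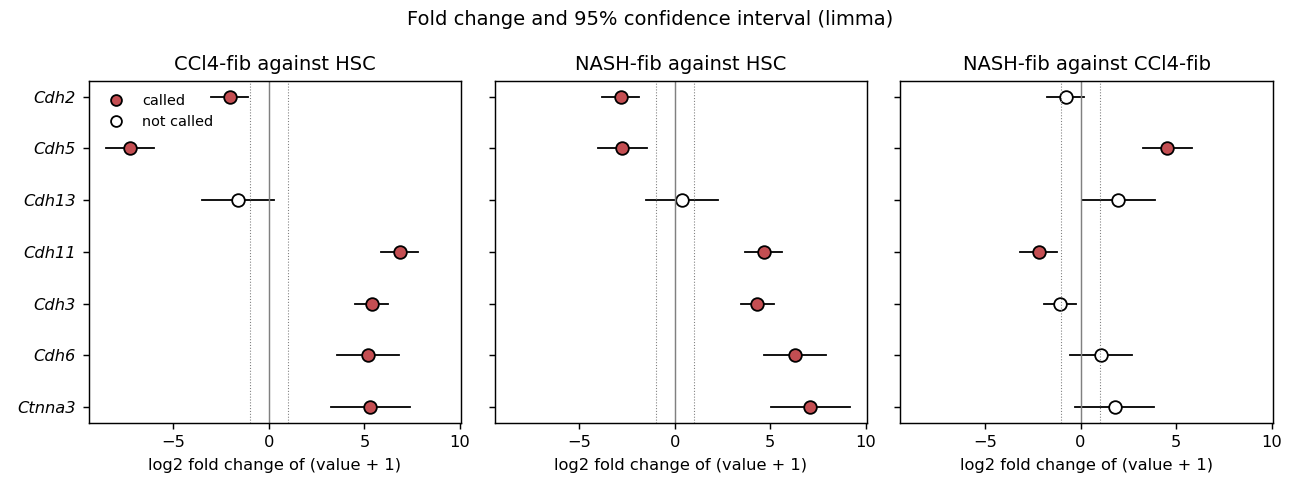
Log2 fold change of each of the 7 genes in the 3 comparisons, with the 95% interval of the limma fit; filled points passed the test. In both comparisons with HSC, Cdh3, Cdh6, Cdh11 and Ctnna3 lie to the right of 0 and Cdh2 and Cdh5 to the left. The interval of Cdh13 includes 0 there. Cdh6 and Ctnna3 passed the filter on low reads through their fibroblast libraries, so their points and intervals against HSC are a description only.

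Cdh6 and Ctnna3 were read in every fibroblast library and hardly at all in HSC. Cdh6 encodes K-cadherin, known from the developing kidney, and Ctnna3 encodes alpha-T-catenin, an alpha-catenin first known from heart muscle and testis. Cdh6 (NM_007666) lies on the minus strand of chromosome 15 from 13028699 to 13173675 with 12 exons. Ctnna3 (NM_001164376) lies on the plus strand of chromosome 10 from 63457511 to 65003667 with 18 exons. The protein-coding genes Gm10118 and Lrrtm3 have exons within that span, with no base of exon shared. The 250 bases before the start of Cdh6 and of Ctnna3 come from RefSeq (GRCm38.p6). They lie at chr15:13173676-13173925 on the minus strand and chr10:63457261-63457510 on the plus strand. Of the 7 genes, only these 2 had an entry in the promoter table used, and no other was shown for that reason. Capitals mark the motif found.
Cdh6: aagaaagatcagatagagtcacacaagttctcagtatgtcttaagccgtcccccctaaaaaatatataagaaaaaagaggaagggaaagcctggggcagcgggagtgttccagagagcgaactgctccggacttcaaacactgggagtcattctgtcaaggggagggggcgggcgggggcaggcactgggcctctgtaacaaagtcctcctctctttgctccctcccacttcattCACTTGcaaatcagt
Ctnna3: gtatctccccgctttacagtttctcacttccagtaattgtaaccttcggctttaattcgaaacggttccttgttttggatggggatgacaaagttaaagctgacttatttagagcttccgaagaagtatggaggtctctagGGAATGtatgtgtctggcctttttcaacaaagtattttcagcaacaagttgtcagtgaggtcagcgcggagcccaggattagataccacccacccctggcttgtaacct
Searched on both strands were the E-box CANNTG, the AP-1 site TGACTCA and the TEAD site GGAATG, none of which overlapped another here. The Cdh6 stretch held 1 E-box, 15 bases before the start, and the Ctnna3 stretch held 1 GGAATG, 109 bases before the start. Among 32851 promoter stretches of this length, 66.2% held an E-box, 4.5% the AP-1 site and 12.6% the TEAD site, so the matches are a description of these letters only.

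The Cdh6 value was 0, 1.46 and 0 in HSC (0, 1 and 0 reads), 140, 21.3 and 36.3 in CCl4-fib, and NASH-fib had 85.6, 94.4 and 137. The Ctnna3 value was 0 in all 3 HSC libraries, 149, 5.95 and 57.2 in CCl4-fib, and NASH-fib had 118, 155 and 136. For both genes every fibroblast library was above HSC, CCl4-fib replicate 1 was the highest of CCl4-fib and replicate 2 the lowest, and the fibroblast groups overlapped. Against the floor of 3 reads per library, Cdh6 was at least 17.2-fold higher on average in CCl4-fib than in HSC, and at least 27.6-fold higher in NASH-fib. For Ctnna3 the bounds were at least 18.5-fold higher (CCl4-fib) and at least 35.7-fold higher (NASH-fib). Without CCl4-fib replicate 1, the bounds for CCl4-fib were 7.53-fold (Cdh6) and 8.27-fold (Ctnna3). These differences follow in part from the filter, which both genes passed through their fibroblast libraries, and no p is given for them.

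Between the fibroblast groups, neither gene passed the test. The log2 difference was 1.10 for Cdh6 (95% interval -0.53 to 2.72, limma adjusted p = 0.35) and 1.80 for Ctnna3 (95% interval -0.27 to 3.86, limma adjusted p = 0.231). Within CCl4-fib, the sum of the 10 smooth muscle markers was 21577, 8904 and 10483 in replicates 1 to 3, the order in which Cdh6 and Ctnna3 stood too. In NASH-fib that sum was 10864, 31877 and 20930, an order that Ctnna3 followed and Cdh6 did not. In HSC the sum was 172 to 521 with 3 to 5 of the markers at 0. The part of smooth muscle cells in the Cdh6 and Ctnna3 values was not tested.

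**Figure D3:**
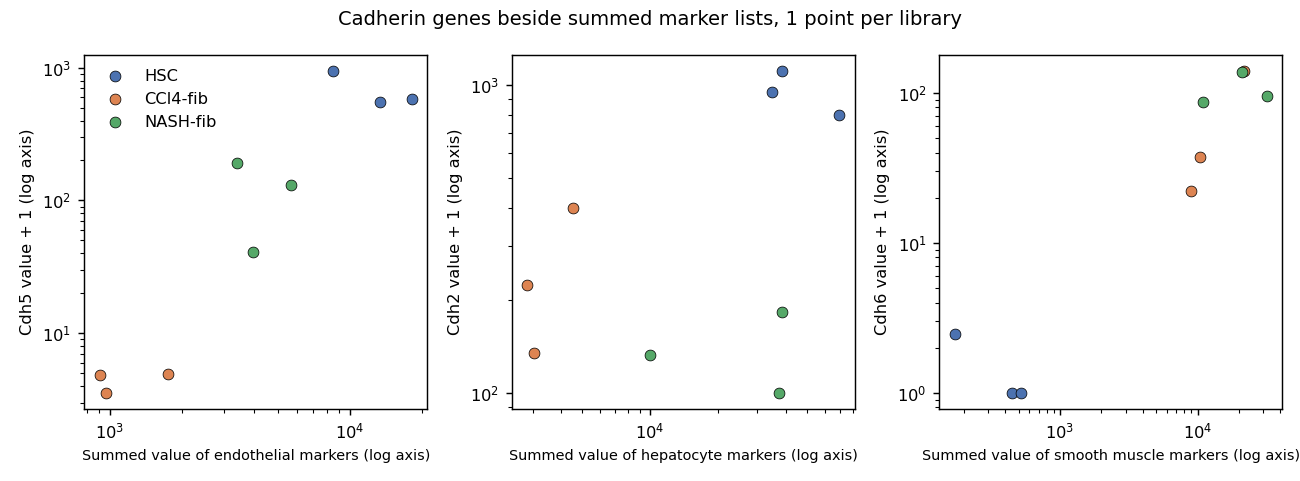
Normalised value + 1 of Cdh5, Cdh2 and Cdh6 (vertical, log axes) against the summed value of the endothelial, hepatocyte and smooth muscle markers (horizontal, log axes), with 1 point per library coloured by group. Cdh5 lay lowest in CCl4-fib, where the endothelial sum was 906 to 1745. The hepatocyte sum was 34857 to 69400 in HSC and 38682, 10009 and 37264 in NASH-fib, and Cdh2 was 796 to 1111 and 99.3 to 182 there.

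Cdh13 alone among the 7 genes passed no test. It encodes T-cadherin, which is held in the membrane by a lipid anchor, has no cytoplasmic tail and is known from endothelium and smooth muscle. It (NM_019707) lies on the plus strand of chromosome 8 from 118283611 to 119324927 and has 14 exons. Its value was 186, 96.1 and 560 in HSC, 221, 49.3 and 31.5 in CCl4-fib, and NASH-fib had 120, 336 and 551. Libraries of one group differed as much as those of different groups, with HSC replicate 3, CCl4-fib replicate 1 and NASH-fib replicate 3 the highest of their groups. The log2 difference was -1.60 for CCl4-fib against HSC (95% interval -3.49 to 0.28, limma adjusted p = 0.186) and 0.38 for NASH-fib against HSC (95% interval -1.50 to 2.26, limma adjusted p = 0.888). In NASH-fib it was 1.98 above CCl4-fib (95% interval 0.10 to 3.87), and the limma adjusted p was 0.156. Without NASH-fib replicate 3 or HSC replicate 2, the difference between NASH-fib and HSC was -0.10 or -0.20. HSC replicate 3 and NASH-fib replicate 3 also had the highest endothelial sums of their groups, with Esam (18139 and 5691) and without it (16649 and 4231). CCl4-fib replicate 1 had the highest sum of its group with Esam (1745) but not without it (385, against 397 in replicate 2). The sum of smooth muscle markers was highest in replicate 3 of HSC (521), replicate 1 of CCl4-fib (21577) and replicate 2 of NASH-fib (31877). Macrophage and leukocyte markers had their highest sums in replicate 3 of HSC (13428) and of NASH-fib (6103). In CCl4-fib replicate 1 that sum was the lowest of its group (380). The part of RNA from any of these cell types in the Cdh13 values was not tested.

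Per kb of exon, the make-up of cadherin RNA differed between the groups. HSC had 197 for Cdh2, 174 for Cdh5 and 72 for Cdh13 as mean values per kb, and no more than 5.50 for Cdh3, Cdh6 or Cdh11. CCl4-fib had 358 for Cdh11, 241 for Cdh3 and 52.3 for Cdh2. NASH-fib had 118 for Cdh3, 86.1 for Cdh13, 82.4 for Cdh11, 30.4 for Cdh5 and 28.5 for Cdh2, and Ctnna3, the catenin, stood at 37.2. Of the summed value per kb of the 6 cadherins and Cdh1, Cdh2 took 43.7% ± 7.58 and Cdh5 37.9% ± 8.27 in HSC. In CCl4-fib, Cdh11 took 51.5% ± 5.69 and Cdh3 35.0% ± 0.887. In NASH-fib, Cdh3 took 30.7% ± 10.2, Cdh13 21.8% ± 12.3 and Cdh11 21.6% ± 11.6 (SD, n = 3 each), and these SDs are larger than the gaps between the 3 means. The sum itself was 392 to 506 per kb in HSC, 557 to 883 in CCl4-fib and 349 to 437 in NASH-fib. The ratio of Cdh2 to Cdh11 per kb was 61.4, 115 and 46.9 in HSC, 0.111, 0.133 and 0.174 in CCl4-fib, and NASH-fib had 0.292, 0.545 and 0.304, with no overlap between any groups. In HSC the ratio rests on 7 to 15 reads of Cdh11 per library.

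**Figure D4:**
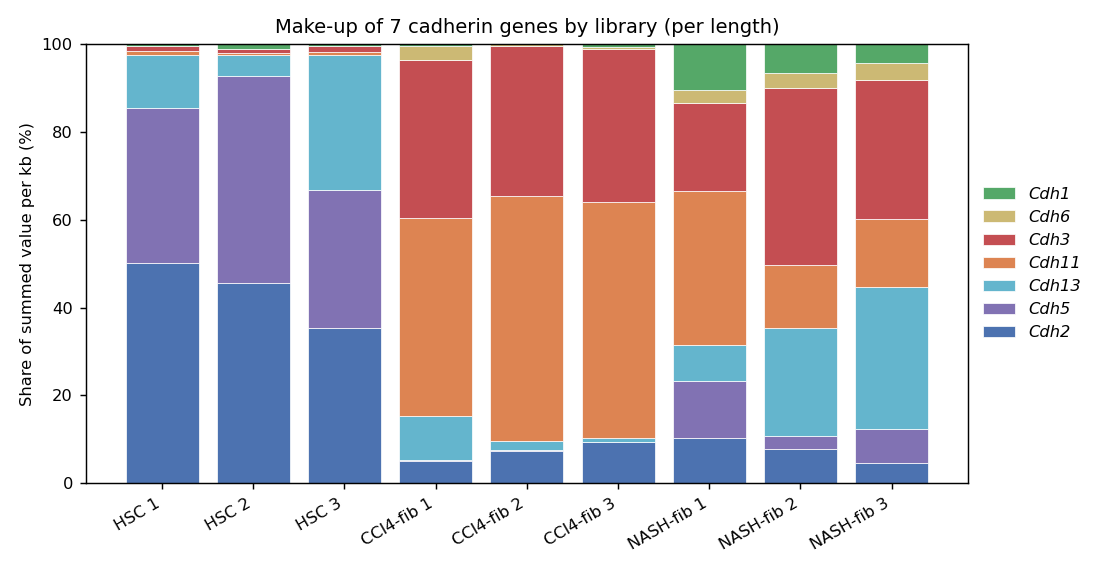
Share of each of 7 cadherins (the 6 studied and Cdh1) in their summed value per kb of exon, in percent, as a stacked bar for each library. Cdh2 and Cdh5 held most of the HSC bars and Cdh11 and Cdh3 most of the CCl4-fib bars, while several cadherins shared the NASH-fib bars.

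Among other genes of the cadherin family and its partners, 27 of 45 in the file passed the filter on low reads. In NASH-fib compared with HSC, 3 rose and 3 fell, where 8.23% of all tested genes rose and 4.3% fell. The median log2 fold change was 0.05 over the 27 and -0.02 over all tested genes. In CCl4-fib compared with HSC, 3 rose and 8 fell, where 16.2% of all tested genes rose and 11.7% fell. The medians were -0.53 and 0.18. In both comparisons the genes that fell include Cdh18, which passed the filter only through its HSC libraries and adds no support. Between the fibroblast groups, 4 were higher and 1 lower in NASH-fib, where 4.97% of all tested genes were higher and 5.66% lower. The medians were 0.29 and -0.11. These 5 calls became 2 when replicate 2 of CCl4-fib was left out, and 3 without replicate 3 of CCl4-fib or replicate 1 of NASH-fib. Without replicate 3 of NASH-fib they became 0 (limma, with 12 of the 27 at an unadjusted p under 0.05).

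The catenins that bind most cadherins did not pass the test in any comparison. Ctnnb1, the beta-catenin gene, had a log2 difference of -0.36 for NASH-fib and -0.37 for CCl4-fib against HSC, and 0.00 between them. Ctnna1, the alpha-catenin gene of most tissues, had 0.05, 0.52 and -0.47. Ctnnd1, whose catenin binds the tail near the membrane, had -0.67, -0.96 and 0.29. Ctnna1 stood at 964 to 1319 in HSC, 1631 to 1720 in CCl4-fib and 1056 to 1519 in NASH-fib, well above the 155 that Ctnna3 reached at most with exons of nearly the same length.

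Dsg2, which encodes a desmosomal cadherin, rose in both fibroblast groups. It had 40.7 to 49.1 in HSC, 465 to 693 in CCl4-fib and 256 to 470 in NASH-fib, and the log2 fold change was 3.54 (limma adjusted p = 8.71e-05) and 2.89 (limma adjusted p = 0.000411) for CCl4-fib and NASH-fib. Arvcf, a catenin of the same family as Ctnnd1, fell by 2.65 (limma adjusted p = 0.000392) and by 1.80 (limma adjusted p = 0.00594), the latter call being lost with the date as a term (limma adjusted p = 0.108). Cdh4, the R-cadherin gene, had 67.0 to 160 in HSC, 0 to 15.9 in CCl4-fib and 25.6 to 28.5 in NASH-fib, and the fall in CCl4-fib passed the test (-5.22, limma adjusted p = 0.00204) while that value in NASH-fib did not (-2.07, limma adjusted p = 0.212). Cdh18 was read in all HSC libraries, with 10 to 31 reads, and had at most 1 read in any fibroblast library. It passed the filter only through its HSC libraries, so no p is given for it.

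Other partners divided the fibroblast groups. Ptprb, the VE-protein tyrosine phosphatase that binds VE-cadherin, had 4169, 5713 and 4863 in HSC, 41.3, 100 and 36.3 in CCl4-fib, and NASH-fib had 1547, 205 and 952, with replicate 2 the lowest of NASH-fib as it was for Cdh5. Its log2 difference was -6.49 for CCl4-fib against HSC (limma adjusted p = 9.45e-05), -2.86 for NASH-fib against HSC (limma adjusted p = 0.0171) and 3.63 between them (limma adjusted p = 0.0134). The call against HSC in NASH-fib was lost with no filter, by edgeR and with the date as a term (adjusted p of 0.101, 0.0561 and 0.316), and that between the fibroblast groups with no filter and when replicate 3 of NASH-fib was left out (limma adjusted p of 0.0705 and 0.0554). Cdh1, the E-cadherin gene, had 7.01, 24.8 and 7.17 in HSC, 12.7, 1.70 and 22.9 in CCl4-fib, and NASH-fib had 173, 102 and 82.6. Cdh1 was higher in NASH-fib than in HSC (log2 3.27, limma adjusted p = 0.025) and than in CCl4-fib (log2 3.58, limma adjusted p = 0.0256), and the first call was lost in 8 of 19 alternatives and the second in 7. Hepatocyte markers, a list of 15, were at 34857 to 69400 in HSC, 2841 to 4535 in CCl4-fib and 10009 to 38682 in NASH-fib, and cholangiocyte markers at 72.5 to 247, 3521 to 4822 and 6229 to 11865. Spp1 carried most of the last sum. Without it the cholangiocyte sum was 39.8 to 88.5 in HSC, 1384 to 3295 in CCl4-fib and 1135 to 1414 in NASH-fib. That sum was thus no longer higher in NASH-fib than in CCl4-fib. By gene, 3 of 8 tested cholangiocyte markers were higher in NASH-fib than in CCl4-fib and 0 were lower, with a median log2 change of 1.58. The lists' part in the Cdh1 values was not tested.

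**Figure D5:**
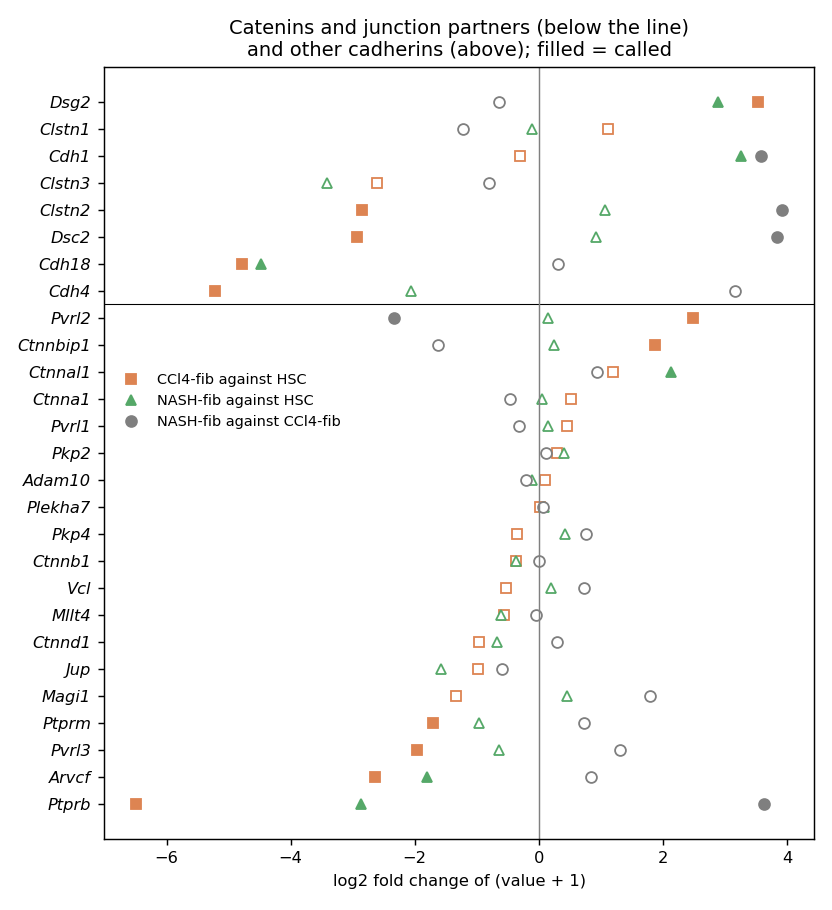
Log2 fold change of the tested cadherin family members and junction partners in the 3 comparisons, with a square for CCl4-fib against HSC, a triangle for NASH-fib against HSC and a circle for NASH-fib against CCl4-fib, filled where the test was passed. Ptprb lies at -6.49 in CCl4-fib against HSC, Dsg2 at 3.54, and Ctnnb1 close to 0 in all 3 comparisons. Cdh18 passed the filter on low reads only through its HSC libraries, so its points against HSC are a description only.

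The genes whose log2 values followed each cadherin most closely over the 9 libraries are given as a description, since libraries of a group share their cells' source. For Cdh2 they were Ptger2 (Pearson r = 0.98) and Trib2 (0.98), and for Cdh5 they were Btnl9 (0.99) and Itih1 (0.99). Myof, which encodes a membrane-repair protein, and Iqck followed Cdh3 with r of 0.993 and 0.996. For Cdh11 they were Prkg2 (0.99), a cGMP-dependent kinase, and Flrt2 (0.99), a cell surface protein. The olfactory-type receptor genes Olfr558 and Olfr78 followed Cdh6 (0.99 and 0.99), and Col19a1, a collagen gene, and Rergl followed Ctnna3 (0.99 and 0.99). Cdh13 was followed by Rhoh, whose means were 8.48, 2.14 and 8.73 in HSC, CCl4-fib and NASH-fib, with r of 0.98, and by Inmt, a methyltransferase gene, with r of 0.94.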

How the data were processed

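RNA of the 9 libraries was amplified (SMARTer) and read from a single end. The authors aligned them to mm10 with STAR and counted them with HOMER, reads of either strand on RefSeq exons with no more than 3 at a position, merging the transcripts of each gene. The deposited values are a signal per gene and library after the authors' normalization for DESeq2 over 10 libraries; the tenth is not analysed here, and 0 value columns were left unused. Whole reads were recovered for 100% of values by dividing by what 1 read is worth (tolerance 0.05 reads). The fold bounds at the floor use 3 reads per library.

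The test was set as edgeR for counts and limma for any other unit; as the values are a signal, limma 3.58.1 in R 4.3.3 was fitted to log2(value + 1) over all 9 libraries, for genes kept by filterByExpr of edgeR 4.0.16 on the recovered reads (minimum count 10). Benjamini-Hochberg adjustment covered all 13651 of these, and calls needed both an adjusted p under 0.05 and a change of 1 or more on the log2 scale in either direction. Fold changes on this scale understate those of low genes, and folds given without "log2" are ratios of mean values. The edgeR quasi-likelihood test on the recovered reads called 1576 genes in NASH-fib against HSC, 3592 in CCl4-fib against HSC and 1365 in NASH-fib against CCl4-fib. An exact permutation test of 3 against 3 libraries cannot go below p = 0.1 and was not used. P-values measure the spread between pooled libraries, and the sources do not say that each pool held different mice.

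Named were the 7 genes, then Cdh1, Ctnnb1, Ctnnd1, Ctnna1 and up to 3 called partner genes with the largest change per comparison and direction (some of them given by counts only), and the 2 genes most like each of the 7. The genes and all lists were chosen with earlier results of these data known. Alternatives were no filter, pseudocounts of 0.5 and 4, TMM and upper-quartile scaling, edgeR, DESeq2 1.42.0, a fit of the 2 groups compared, a replicate block, the date in the labels and each library left out. The scripts were tested on simulated data. Gene positions are those of GENCODE M21 and the deposited table (mm10).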

Additional observations from a re-analysis of the deposited data

How the results depend on the processing

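Of 399 values of the 7 genes under 19 alternatives, 391 kept their direction and their side of the threshold, 6 lost their call and 2 turned sign without a call. The calls lost were Cdh11 in NASH-fib against CCl4-fib in 5 and Cdh5 in NASH-fib against HSC with the date as a term. The sign turned for Cdh13 in NASH-fib against HSC, which ranged from -0.20 to 1.07 with a library left out. The number called was 6 in both comparisons with HSC with any library left out. Cdh6 and Ctnna3 are among these 6, and their values are among the 391. Both passed the filter through their fibroblast libraries, so the counts that include them describe the genes and support nothing. Between the fibroblast groups the 2 calls became 1 with no filter, 1 with the date as a term, and 1 to 2 with a library left out. Of 798 values of 14 partner genes, 60 lost and 7 gained a call, and 14 turned sign, none of them called. With the date as a term these were Ctnna1 (-0.21) and Ctnnbip1 (-0.27) in NASH-fib against HSC and Ctnnb1 (-0.086) in NASH-fib against CCl4-fib. With a library left out, Ctnna1 ranged from -0.11 to 0.16, Ctnnbip1 from -0.17 to 0.76 and Pvrl2 from -0.11 to 0.35 in NASH-fib against HSC, Cdh1 from -0.97 to 0.60 in CCl4-fib against HSC, and Ctnnb1 from -0.11 to 0.075 and Ctnnd1 from -0.038 to 0.51 in NASH-fib against CCl4-fib. With the date as a term, partner calls fell from 6 to 2 (NASH-fib against HSC), from 11 to 6 (CCl4-fib against HSC) and from 5 to 2 (NASH-fib against CCl4-fib), and the last became 1 with no filter. With a library left out they ranged from 5 to 7, 8 to 12 and 0 to 5.

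Over all genes, the 1451 calls between the fibroblast groups became 455 with no filter, 929 with the replicate block, 593 with the date and 2679 with DESeq2, and 212 without CCl4-fib replicate 2. Calls in NASH-fib against HSC fell from 1711 to 668 with the date, and those in CCl4-fib against HSC from 3801 to 2476. Other scalings moved the median of all genes by -0.18 to 0.25 on the log2 scale.

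Replicate numbers did not pair the libraries: deviations of same-numbered libraries correlated at -0.47 to 0.51, others at -0.59 to 0.65, and 3 of 9 libraries correlated best with their own number. With a replicate block, partner calls between the fibroblast groups went from 5 to 3, and calls of the 7 genes stayed at 6, 6 and 2. The 6 again include Cdh6 and Ctnna3, with the same limit. Depth limits Cdh6 and Ctnna3 in HSC and Cdh5 in CCl4-fib, which had 5 reads or fewer.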
